A study of Mus musculus with 53 samples.

Results

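The genes described are 10 markers of DNA replication and cell division in the adult mouse heart: the MCM helicase subunits Mcm2, Mcm3, Mcm4, Mcm5, Mcm6 and Mcm7, and Pcna, Mki67, Top2a and Ccnd1. They were chosen by name, as the rows of the authors' table that carry these symbols, and all 10 were found among its 34306 genes. RNA was sequenced from a pair of fractions of the heart. Input is total cytoplasmic RNA, and TRAP (translating ribosome affinity purification) is the RNA that comes down with tagged ribosomes. CAG hearts carry the tag in every lineage by the labels, and in Tie2 hearts an endothelial Cre switches it on. In the band groups the ascending aorta was tied against a needle, which puts a pressure load on the left ventricle, and in the sham groups the same operation was done without the tie.

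The 12 libraries analysed comprise 2 of input and 2 of TRAP from sham-operated CAG hearts, the same from banded CAG hearts, and, from hearts without surgery (called unoperated here), 1 of each fraction per tag line. Input libraries of CAG and Tie2 hearts come from animals that carry the tag too. All mice were adult, and the operated mice were male. The first deposit of the series lists its mice as 129/C57BL mixed, while the labels of the libraries used here give no background, and no label gives the time after surgery. RNA was pooled before the libraries were made, and no label states that paired libraries of a group are from different mice. The p-values below therefore reflect the spread among these libraries alone, and that spread may be technical.

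Before a cell copies its DNA, pairs of MCM rings made of subunits Mcm2 to Mcm7 are loaded at origins, and in S phase each ring unwinds the fork as the core of the replicative helicase. Pcna is the sliding clamp that holds DNA polymerases on the template, Top2a untangles the copied strands, Mki67 coats mitotic chromosomes and is absent from resting cells, and Ccnd1 (cyclin D1) starts the G1 kinases that release E2F transcription factors from the retinoblastoma proteins. Most of the adult heart's RNA comes from cardiomyocytes, which rarely divide, while endothelial cells, fibroblasts and macrophages can enter the cycle.

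The promoters are shown because genes of this kind are known targets of E2F factors, and of the complexes that read a CCAAT box and a cell cycle homology element. RefSeq windows of GRCm38.p6, from 250 bases before to 50 bases after an annotated start, were found for 8 of the 10 genes, not for Mcm4 and Ccnd1, with 2 windows for Mcm7. The E2F words searched on both strands were TTTCCCGC, TTTCGCGC, TTTGCCGC and TTTGGCGC. They occurred in 4 of the 8 genes (Mcm3, Mcm5, Mcm6 and Mcm7), against 2.26% of 32851 RefSeq promoter windows of the same length. In Mcm5 the words at -153 and -149 overlap on opposite strands, and in Mcm6 those at -110 and -106 do, with another at -47. The 250 bases before the start of Mcm5 (chr8:75109259-75109508, plus strand) and of Mcm6 (chr1:128359706-128359955, minus strand) are printed 5′ to 3′, with E2F words in capitals.
Mcm5: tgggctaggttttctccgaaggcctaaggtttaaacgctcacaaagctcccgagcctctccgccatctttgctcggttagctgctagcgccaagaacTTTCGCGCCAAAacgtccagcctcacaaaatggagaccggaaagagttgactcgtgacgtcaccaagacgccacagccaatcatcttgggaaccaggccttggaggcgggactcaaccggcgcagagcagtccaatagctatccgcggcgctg
Mcm6: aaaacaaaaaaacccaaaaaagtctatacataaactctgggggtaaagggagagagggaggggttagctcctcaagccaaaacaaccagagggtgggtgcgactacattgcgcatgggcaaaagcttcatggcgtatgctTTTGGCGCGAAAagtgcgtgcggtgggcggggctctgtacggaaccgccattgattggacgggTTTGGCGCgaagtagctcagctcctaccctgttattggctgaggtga

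The 30 bases around the E2F words of Mcm3, which lie after the annotated start at 20 and 39 (chr1:20820265-20820294, minus strand), and around the word of Mcm7 at -165 (chr5:138172030-138172059, minus strand) are printed for comparison, again with the words in capitals. The same Mcm7 window holds another E2F word at 17, and its other window holds none.
Mcm3: gGCGGGAAAacttgggaagtTTTGGCGCca
Mcm7: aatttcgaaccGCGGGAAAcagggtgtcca

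CCAAT, on either strand, occurred in the windows of 8 of 8 genes, against 37.4% of all windows, and TTTGAA, the cell cycle homology element, in Mcm2, Mki67 and Top2a, against 17.9%. Top2a stood out by number, with 6 CCAAT words and 2 TTTGAA words and no E2F word. Its 250 bases before the start (chr11:99024190-99024439, minus strand) are printed with both kinds of word in capitals. A match describes the letters of a window, not a bound site.
Top2a: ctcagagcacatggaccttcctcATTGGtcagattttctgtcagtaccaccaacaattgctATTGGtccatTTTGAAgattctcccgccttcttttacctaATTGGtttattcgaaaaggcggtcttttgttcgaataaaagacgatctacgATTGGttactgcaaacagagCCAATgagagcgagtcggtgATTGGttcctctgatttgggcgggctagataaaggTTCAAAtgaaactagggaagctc

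**Figure D1:**
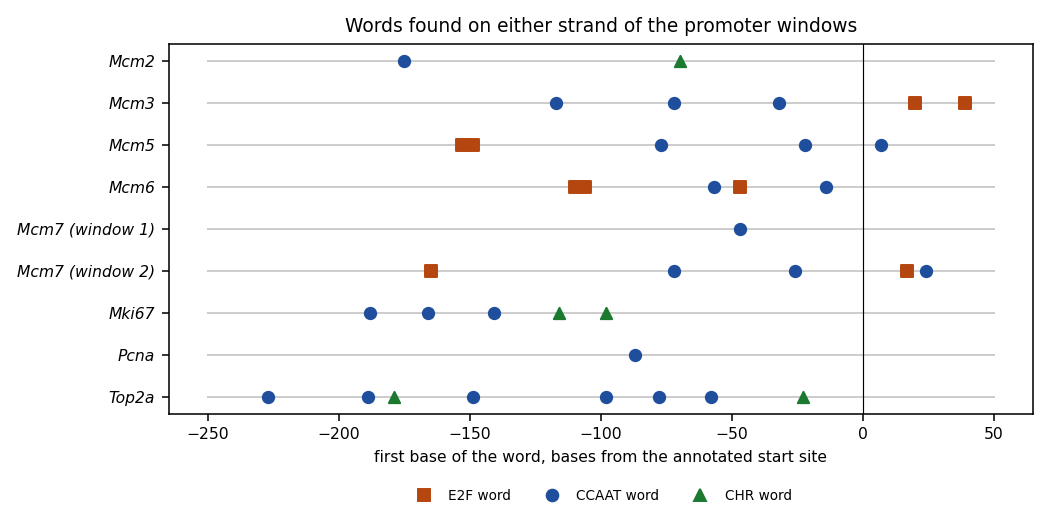
Position of E2F (squares), CCAAT (circles) and TTTGAA words (CHR, triangles) in the promoter windows of 8 genes, in bases from the annotated start site, with each window as a grey line. E2F words appear in Mcm3, Mcm5, Mcm6 and 1 of the 2 Mcm7 windows, and Top2a has 6 CCAAT words.

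The libraries held 26568988 to 94878619 reads. Values are RPKM, reads divided by transcript length in kilobases and by library size, and since each value fell on a whole number of reads, the reads behind it could be recovered. The intervals given below cover counting error only. Cardiomyocyte markers summed to 39208 to 57290 RPKM in the CAG libraries and in Tie2 input and to 2713 RPKM in Tie2 TRAP, where 12 of 12 endothelial markers were at least 4.45 times their level in Tie2 input and the 9 macrophage and leukocyte markers tested at least 4.09 times. Macrophage markers were thus raised in Tie2 TRAP beside the endothelial markers that its label names. The band TRAP libraries differed most from each other, with a chi-square over genes of 86.4 per degree of freedom against 12.2 to 17.7 for the other replicate pairs, and their endothelial markers summed to 879.9 and 1717 RPKM.

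On the RPKM scale, which is per length, Pcna was by far the most abundant of the 10 genes in sham input, at 14.8 and 16.01 RPKM. Ccnd1 followed at 3.40 and 2.94 RPKM, and Mcm7, the most abundant MCM subunit in 11 of the 12 libraries, at 2.43 and 2.19 RPKM. Mcm4, Mcm5, Mcm3 and Mcm2 had means of 0.913 ± 0.0329, 0.884 ± 0.112, 0.829 ± 0.0301 and 0.823 ± 0.0210 RPKM (SD, n = 2). Of these neighbours, the ranges of Mcm4 and Mcm5, of Mcm5 and Mcm3 and of Mcm3 and Mcm2 overlapped, so their order was not resolved. Mcm6 was lower at 0.583 and 0.667 RPKM.

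The lowest levels were those of Top2a at 0.216 and 0.191 RPKM and Mki67 at 0.124 and 0.150 RPKM in sham input. These came from 33 to 61 reads per library, and in the sham and band TRAP libraries from 5 to 35. Mki67 and Top2a did not reach 1 RPKM in 2 libraries and so are not among the 11654 genes tested by limma on the RPKM scale. Their tests come from limma-voom on the recovered reads, over 16326 genes with at least 10 reads in 2 or more libraries. The MCM genes summed to 6.38 ± 0.184 RPKM in sham input (SD, n = 2) and to 28.7 RPKM in Tie2 TRAP, the highest of the 12 libraries.

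**Figure D2:**
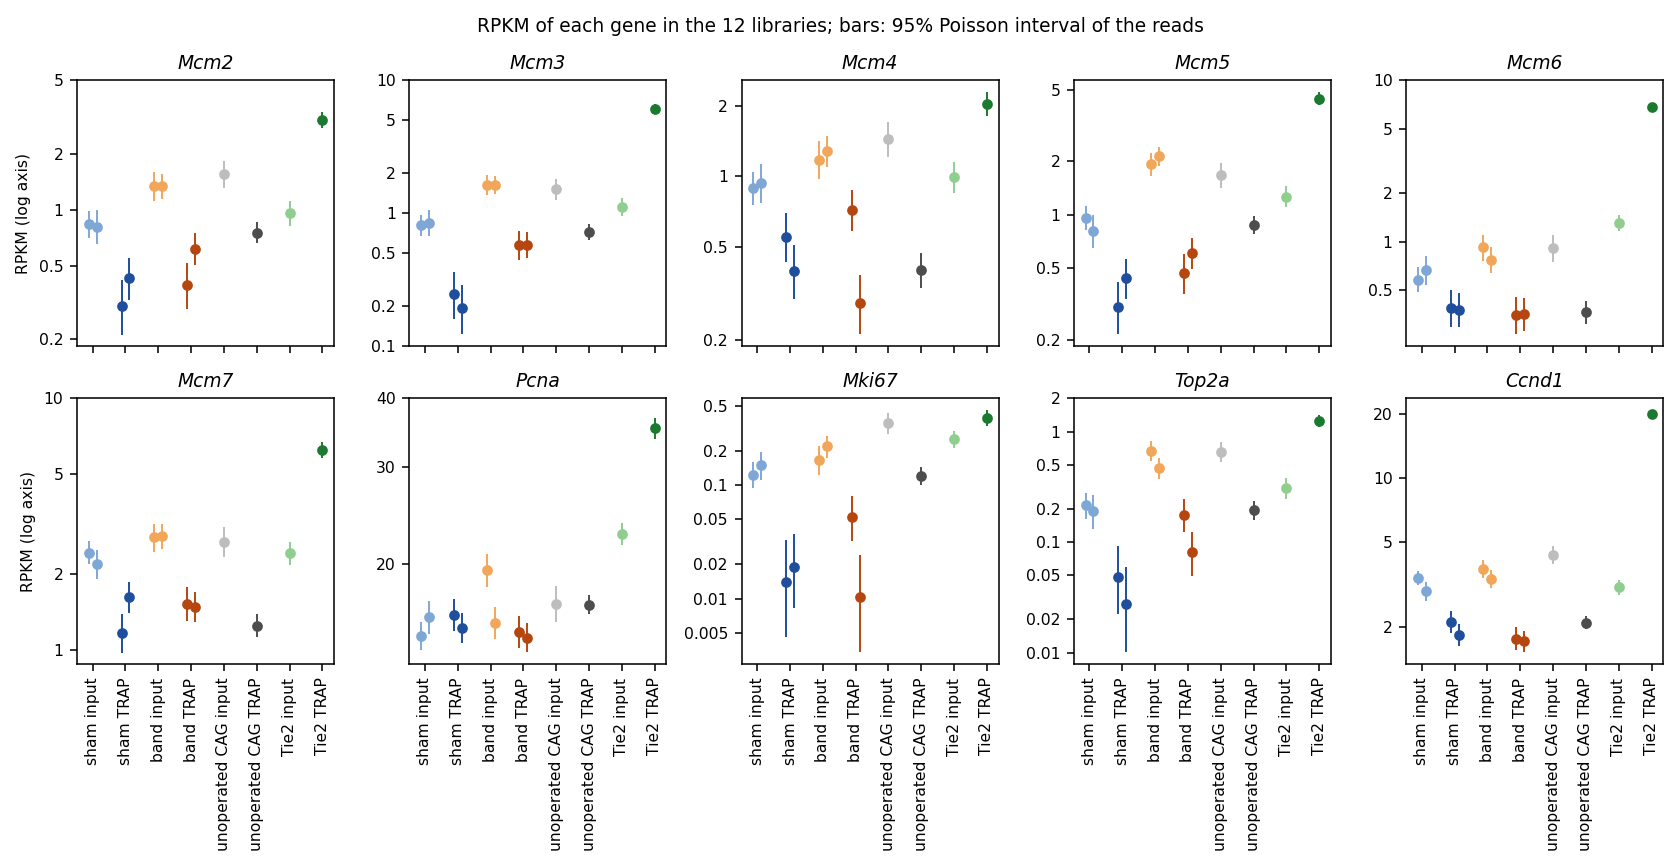
RPKM of each gene (log axis) in the 12 libraries by group, with the 95% Poisson interval of its reads. All 10 genes are highest in Tie2 TRAP, whose median ratio to unoperated CAG TRAP over all genes tested is 2.23. In both sham TRAP libraries 9 of 10, all but Pcna, are lower than in both sham input libraries, against 46.9% of all genes tested.

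Pressure overload came first as a question of total RNA: whether band input held more replication transcripts than sham input. Of the 8 genes tested, Mcm5 and Mcm3 rose with banding and 0 fell, where 2.44% of all genes tested were called higher and 1.65% lower. The other MCM subunits and Mki67 and Top2a were also higher in both band libraries than in both sham libraries, without passing the test. In bulk tissue, more cells of a type and more RNA per cell cannot be told apart.

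Mcm5 was at 0.963 and 0.805 RPKM in sham input, against 1.91 and 2.12 RPKM in band input. The band values lay clear of the sham values, 2.28-fold higher on the RPKM scale, and the log2 fold change of RPKM + 1 was 0.68 (SE 0.11, limma, adjusted p = 0.0205). Adding 1 shrinks fold changes where RPKM is low, as it is here. Mcm3 was at 0.807 and 0.850 RPKM in sham input, against 1.64 RPKM in both band libraries. It was 1.97-fold higher, with a log2 fold change of 0.53 (SE 0.086, limma, adjusted p = 0.0220).

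Both calls rest on all 4 libraries. Without sham input 1, sham input 2, band input 1 or band input 2, neither gene was called, with adjusted p (limma) of 0.109 to 0.190 for Mcm5 and 0.115 to 0.182 for Mcm3, and both were just outside with a pseudocount of 0.1 (0.0518 for each). Limma-voom on reads also called Mcm5 and Mcm3, 2 of the 10 genes against 1.64% of all genes, with log2 fold changes of 1.18 (adjusted p = 0.0263) and 0.99 (adjusted p = 0.0347).

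Mcm2, which sits across the ring's gate from Mcm5, was at 0.838 and 0.808 RPKM in sham input, against 1.34 and 1.35 RPKM in band input, a log2 difference of 0.36 (SE 0.11, limma, adjusted p = 0.129). Mcm4 was at 0.889 and 0.936 RPKM against 1.18 and 1.28 RPKM after banding. Mcm6 was at 0.583 and 0.667 RPKM against 0.923 and 0.775 RPKM. Mcm7 was at 2.43 and 2.19 RPKM against 2.80 and 2.83 RPKM. For each of these the band libraries exceeded the sham libraries, at 1.22 to 1.63 times the sham mean, and the test was not passed (limma, adjusted p of 0.129 to 0.486).

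Summed over the MCM genes, sham input held 6.25 and 6.51 RPKM and band input 9.78 and 9.98 RPKM. The subunits did not share the increase evenly, since Mcm5 made up 12.9% and 14.8% of the sum in sham input and 19.5% and 21.2% in band input, and Mcm7 35.0% and 37.3% against 28.3% and 28.6%.

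Top2a, which acts later in the cycle, had the largest ratio. It was at 0.216 and 0.191 RPKM in sham input, against 0.669 and 0.466 RPKM in band input, 2.79-fold higher, with a limma-voom log2 fold change of 1.41 (SE 0.36, adjusted p = 0.0899). Mki67 was at 0.124 and 0.150 RPKM against 0.166 and 0.220 RPKM (limma-voom, adjusted p = 0.588). For both genes the band libraries lay above the sham libraries, and at these depths neither difference passed the test.

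Pcna and Ccnd1 overlapped between the groups. Pcna was at 14.8 and 16.01 RPKM in sham input, against 19.5 and 15.6 RPKM in band input, where only band input 1 stood higher. Ccnd1 was at 3.40 and 2.94 RPKM against 3.74 and 3.37 RPKM. In all, 8 of 10 genes had both band input libraries above both sham input libraries, against 28.7% of all genes tested. Markers of macrophages and leukocytes moved in the same direction, with 3 of 9 tested (Cd14, Cd68 and Itgam) called higher, against 2.44% of all genes. Their sums were 394.4 to 395.9 RPKM in sham input and 433.5 to 531.3 RPKM in band input, and none was at 0. Also called higher were 1 of 8 fibroblast markers (Col1a1) and 1 of 6 smooth muscle and pericyte markers (Tagln), while 1 of 5 erythroid markers (Hbb-b2) was lower. Of 12 endothelial, 6 cardiomyocyte and 2 lymphocyte markers tested, 0 were called. Their median log2 fold changes were -0.21, 0.02 and 0.04, beside 0.27 for the macrophage and leukocyte markers and -0.01 for all genes. The part of these cell types in the change of Mcm3 and Mcm5 was not tested.

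The unoperated CAG heart did not share the lower level of the sham hearts. All 10 genes were higher in its input library than in both sham input libraries, against 41.9% of all genes tested, and 6 of 10 were at 1.5 times the sham mean or more, against 7.45%. The median ratio over all genes tested was 0.999. Top2a was at 0.656 RPKM, 3.22 times the sham mean, Mki67 at 0.351 RPKM, 2.56 times, and Mcm2, Mcm5 and Mcm3 at 1.55, 1.66 and 1.52 RPKM, 1.89, 1.88 and 1.84 times.

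The MCM sum of the unoperated CAG input was 9.77 RPKM, beside 9.78 RPKM in band input 1, while Mcm2, Mcm4, Mki67 and Ccnd1 were above both band libraries, which 40.7% of all genes tested were. Markers of macrophages and leukocytes did not follow, with a sum of 265.8 RPKM, under both sham libraries. The Tie2 input library was above both sham input libraries for 8 of 10 genes, all but Mcm7 and Ccnd1, against 53.4% of all genes tested. With 1 library per unoperated group there was no test, and surgery, age, genotype and library could not be told apart in these values.

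**Figure D3:**
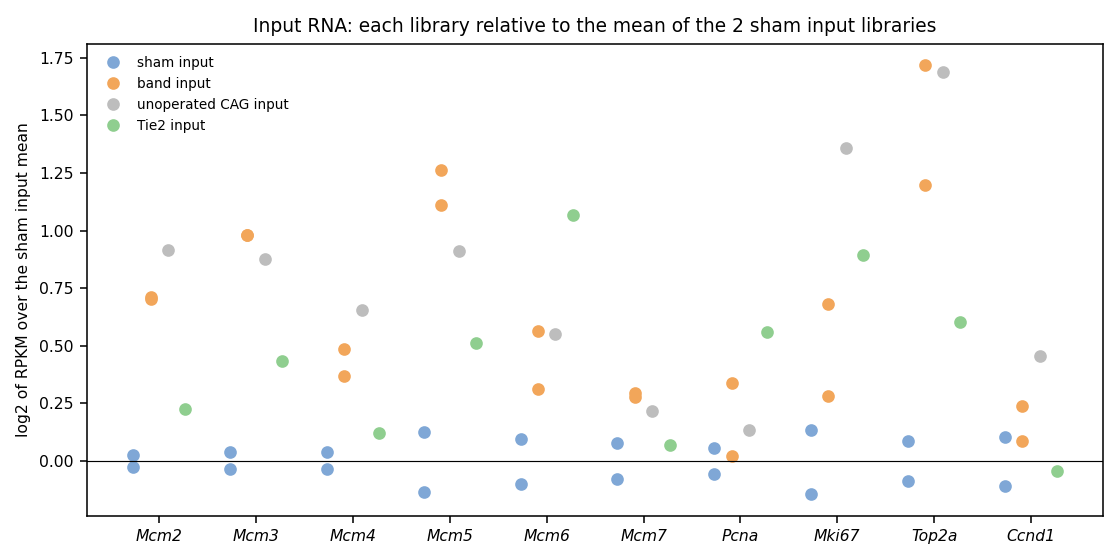
Input RNA of each gene as the log2 of its RPKM over the mean of the 2 sham input libraries, with 1 point per library. Top2a reaches 3.22 times the sham mean in the unoperated CAG library and 2.79 times in the mean of the band libraries, and Pcna, Mcm7 and Ccnd1 move least in the band libraries.

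In TRAP RNA the same question was put to transcripts on ribosomes. None of the 8 genes was called changed with banding by limma, where 2.21% of all genes tested were called higher and 1.56% lower, and 1 of the 8 (Mcm3) had an unadjusted p under 0.05. Limma-voom called 1 of the 10 genes, again Mcm3, higher, against 1.7% of all genes. Band libraries were above sham libraries without overlap for 3 genes (Mcm3, Mcm5 and Top2a), against 21.9% of all genes tested, and below for 3 (Mcm6, Pcna and Ccnd1), against 22.4%.

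Mcm3 was at 0.245 and 0.192 RPKM in sham TRAP, against 0.573 and 0.576 RPKM in band TRAP. The libraries did not overlap, and the band mean was 2.63 times the sham mean. The log2 fold change of RPKM + 1 was 0.37 (SE 0.086, limma, adjusted p = 0.0670). With a pseudocount of 0.1 it was 1.09 (limma, adjusted p = 0.0273), and limma-voom on reads gave an adjusted p of 0.0486, both past the threshold. Without band TRAP 1, band TRAP 2, sham TRAP 1 or sham TRAP 2 the adjusted p on the RPKM scale was 0.0655, 0.0604, 0.263 and 0.330 (limma).

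Mcm5 was at 0.305 and 0.440 RPKM in sham TRAP, against 0.470 and 0.608 RPKM in band TRAP (limma, adjusted p = 0.460). Top2a was at 0.0487 and 0.0275 RPKM against 0.177 and 0.0805 RPKM (limma-voom, adjusted p = 0.247), from 6 to 35 reads. Mcm4 stood apart in the band TRAP libraries, at 0.720 and 0.287 RPKM, where sham TRAP had 0.551 and 0.393 RPKM. Its value in band TRAP 1 was above, and in band TRAP 2 below, both sham libraries.

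Mcm2 was at 0.302 and 0.426 RPKM in sham TRAP, against 0.391 and 0.617 RPKM in band TRAP, and Mcm7 at 1.16 and 1.61 against 1.52 and 1.48 RPKM. Mcm6 was at 0.389 and 0.379 RPKM against 0.351 and 0.357 RPKM. Mcm2 and Mcm7 overlapped between the groups, and none of these 3 differences passed the test (limma, adjusted p of 0.553 to 0.901). Mki67 was at 0.0140 and 0.0190 RPKM against 0.0523 and 0.0104 RPKM, which is 5 to 20 reads a library, too few to rank the groups.

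Whether banding changed RNA in the 2 fractions differently was tested as an interaction. It was called for 0 of the 8 genes and 0 of the 11654 tested by limma, where 557 had an unadjusted p under 0.05, and for 0 by limma-voom. The lowest adjusted p among the 8 was that of Mcm5 (log2 difference of -0.51, SE 0.15, limma, adjusted p = 0.901), so a different response of the fractions was not shown.

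Compared with input, TRAP RNA of the CAG hearts held less of nearly all of these transcripts. After sham surgery 5 of the 8 genes tested were called lower (Mcm2, Mcm3, Mcm5, Mcm7 and Ccnd1), against 24.5% of all genes, and after banding 7 of 8, all but Pcna, against 26.0%. In neither case was any of the 8 called higher, which 15.1% and 16.6% of all genes were. By limma-voom on reads, which also covers Mki67 and Top2a, 7 of 10 were lower after sham surgery, against 21.4% of all genes, and 9 of 10 after banding, against 23.5%.

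Mcm3 had the clearest difference after sham surgery, with 0.245 and 0.192 RPKM in TRAP and 0.807 and 0.850 RPKM in input, 3.79-fold lower (log2 fold change of RPKM + 1 of -0.59, SE 0.086, limma, adjusted p = 0.00285). After banding Mcm5 had the lowest adjusted p, with 0.470 and 0.608 RPKM in TRAP against 1.91 and 2.12 RPKM in input, 3.74-fold lower (log2 fold change -0.97, SE 0.11, limma, adjusted p = 0.000853). In neither case did the fractions overlap.

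The other MCM subunits were 1.63- to 2.26-fold lower in TRAP after sham surgery and 1.87- to 2.66-fold lower after banding on the RPKM scale. Mcm2 fell by 0.42 on the log2 scale after sham surgery (limma, adjusted p = 0.0209) and by 0.64 after banding (limma, adjusted p = 0.00396). Mcm7 fell by 0.48 and 0.61 (limma, adjusted p = 0.0154 and 0.00563). Mcm4 and Mcm6 differed by -0.38 and -0.23 after sham surgery without passing (limma, adjusted p = 0.0784 and 0.0850) and fell by 0.58 and 0.45 after banding (limma, adjusted p = 0.0182 and 0.00846).

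Ccnd1, the D-type cyclin, was at 2.11 and 1.84 RPKM in sham TRAP, against 1.76 and 1.71 RPKM in band TRAP. Both were below the input libraries, 1.60-fold lower after sham surgery (limma, adjusted p = 0.00999) and 2.04-fold lower after banding (limma, adjusted p = 0.00197). Top2a and Mki67 had the lowest TRAP to input ratios after sham surgery, at 0.187 and 0.120, with limma-voom log2 fold changes of -2.43 (adjusted p = 0.0184) and -2.93 (adjusted p = 0.0127). These ratios rest on 15 reads of Top2a and 13 of Mki67, summed over the sham TRAP libraries. Top2a and Mki67 also have the longest transcripts of the genes described, at 5221 and 10075 bases. Neither gene was tested with the length trend removed or with a library left out.

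Pcna was the exception. It was at 16.2 and 15.3 RPKM in sham TRAP, overlapping sham input, with a log2 difference of 0.03 (SE 0.11, limma, adjusted p = 0.863). After banding it was at 15.04 and 14.7 RPKM in TRAP against 19.5 and 15.6 RPKM in input, with a log2 difference of -0.22 (limma, adjusted p = 0.160). A pseudogene copy, Pcna-ps2, is listed in the same table at 0.781 to 3.87 RPKM, and how reads shared by the copies were counted is not stated in the sources used here.

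Counting libraries that did not overlap, 9 of 10 genes were lower in TRAP after sham surgery and 10 of 10 after banding, against 46.9% and 41.6% of all genes tested. These counts of calls depend on the scaling. In the operated hearts, input libraries hold 13.7% to 15.9% mitochondrial reads and TRAP libraries 0.0587% to 0.293%. With mitochondrial and haemoglobin genes left out of the totals, the median log2 fold change of all genes moved from -0.09 to -0.26 after sham surgery and from -0.10 to -0.27 after banding, the calls over all genes shifted from 38.2% to 16.4% and from 39.0% to 18.4% higher, and 7 of 8 and 8 of 8 of the replication genes were called lower. With quantile normalization 52.6% and 56.5% of all calls were higher and 1 and 4 of the 8 genes were lower, and with each library's trend over length removed 48.0% and 50.6% were higher and 2 and 6 of the 8 were lower.

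Mcm6 after sham surgery changed sign, to 0.063 and 0.0086 on the log2 scale under those last settings. Relative to the median of all genes, 7 of the 8 genes were lower after sham surgery and 8 of 8 after banding under each of these scalings. After sham surgery the exception was Pcna in the main fit and with rescaled totals. It was Mcm6 with quantile normalization and with the length trend removed. Without 1 library, 1 to 3 of the 8 genes were called after sham surgery, with 1 without sham input 1, 2 without sham input 2 or sham TRAP 1, and 3 without sham TRAP 2. Mcm3 kept its call each time (limma, adjusted p of 0.0234 to 0.0289). After banding 5 to 7 were called, the fewest without band input 1, where Mcm4 and Mcm6 missed the threshold (limma, adjusted p = 0.0709 and 0.0501). Mcm4 also missed it without band input 2 (0.0852).

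Markers of several cell types were lower in TRAP too. After sham surgery limma called 24.5% of all genes tested lower. The same call fell on 6 of 8 fibroblast, 8 of 9 macrophage and leukocyte and 4 of 6 smooth muscle and pericyte markers. It also fell on 5 of 5 erythroid, 1 of 2 lymphocyte and 2 of 12 endothelial markers. Of the 6 cardiomyocyte markers, 3 (Actn2, Myh6 and Ryr2) were called lower and 1 (Tnni3) higher. Fibroblast sums ran from 254.1 to 262.0 RPKM in sham input and from 113.5 to 121.2 RPKM in sham TRAP, and macrophage sums from 394.4 to 395.9 against 220.4 to 226.5 RPKM. No fibroblast or macrophage marker was at 0 in either fraction. Their part in the lower levels of the replication genes was not tested, and recovery of cell types and binding to ribosomes cannot be told apart in this ratio.

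**Figure D4:**
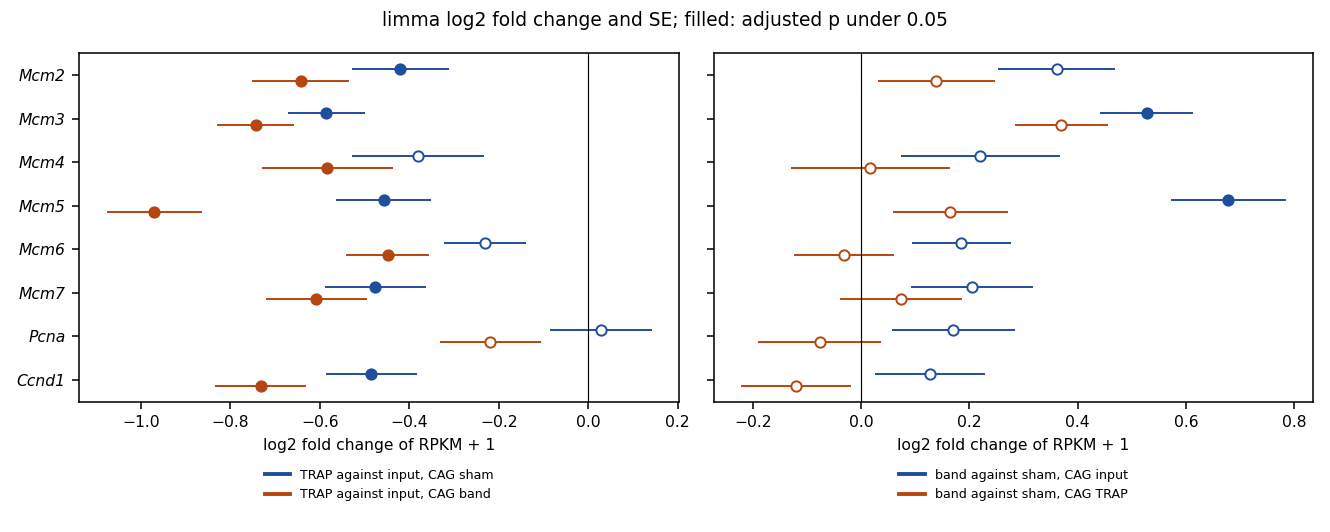
Limma log2 fold change of RPKM + 1, with its SE as a bar, for the 8 genes tested, for TRAP against input (left) and band against sham (right). Filled points passed an adjusted p of 0.05: 5 and 7 genes lower in TRAP after sham surgery and banding, and Mcm3 and Mcm5 higher in band input.

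In the hearts without surgery the 2 tag lines gave opposite pictures. The median TRAP to input ratio of all genes tested was itself below 1 in CAG hearts (0.772) and above 1 in Tie2 hearts (1.53). Mitochondrial reads made up 14.3% of unoperated CAG input and 3.17% of Tie2 input, and 0.0259% and 0.183% of their TRAP libraries. RPKM is scaled by totals that include these reads, so the scaling differs between the tag lines. From CAG input to CAG TRAP all 10 genes were lower, 8 of them at a ratio of 0.5 or less, against 21.4% of all genes tested, and the counting interval of 9 excluded 1. From Tie2 input to Tie2 TRAP all 10 were higher, 8 of them at a ratio of 2 or more, against 38.6% of all genes tested, and the intervals of 10 excluded 1. There is 1 library on each side and no test was run, and the intervals (95%, exact binomial on reads) cover counting error only.

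Ccnd1 had the highest Tie2 ratio. It was at 20.1 RPKM in Tie2 TRAP and 3.07 RPKM in Tie2 input, a ratio of 6.54 (interval 5.98 to 7.17), where the CAG ratio was 0.482. Mcm3 went from 1.12 to 6.11 RPKM, 5.47 times (4.62 to 6.51), and Mcm6 from 1.31 to 6.84 RPKM, 5.22 times (4.58 to 5.96). Mcm6, the least abundant MCM subunit in 7 of the 12 libraries, was the most abundant in Tie2 TRAP, with 23.8% of the MCM sum against 9.38% in the unoperated CAG input.

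Top2a was at 1.25 RPKM in Tie2 TRAP and 0.309 RPKM in Tie2 input, 4.04 times. Mcm5 and Mcm2 were at 4.45 and 3.05 RPKM, 3.53 and 3.17 times their input, and Mcm7 and Mcm4 at 6.23 and 2.03 RPKM, 2.58 and 2.05 times. The lowest ratios were those of Pcna, at 35.3 against 22.7 RPKM and 1.56 times (1.46 to 1.66), and Mki67, at 0.390 against 0.255 RPKM and 1.53 times (1.20 to 1.95). These lay near the median of all genes tested, 1.53.

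Beside these values, the cardiomyocyte markers of Tie2 TRAP had a median ratio to Tie2 input of 0.0738. The endothelial markers had a median ratio of 10.7 (4.45 to 19.7) and the macrophage and leukocyte markers one of 9.49 (4.09 to 15.8), both medians above the highest ratio of the replication genes. Fibroblast markers had a median ratio of 1.85 and smooth muscle and pericyte markers one of 0.535. No marker of these lists was at 0 in Tie2 TRAP, and the share of each cell type in the replication transcripts was not tested.

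Set against the unoperated CAG TRAP library, Tie2 TRAP held at least 2.09 times as much of each of the 10 genes, all at a ratio of 2 or more, against 54.0% of all genes tested and a median of 2.23. Mcm6 differed most, at 6.84 against 0.365 RPKM, 18.7 times (15.8 to 22.3), followed by Ccnd1 at 9.59 and Mcm3 at 8.46 times. Mki67, at 3.21 times, and Pcna, at 2.09 times, had the lowest ratios, and Pcna alone was below that median.

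**Figure D5:**
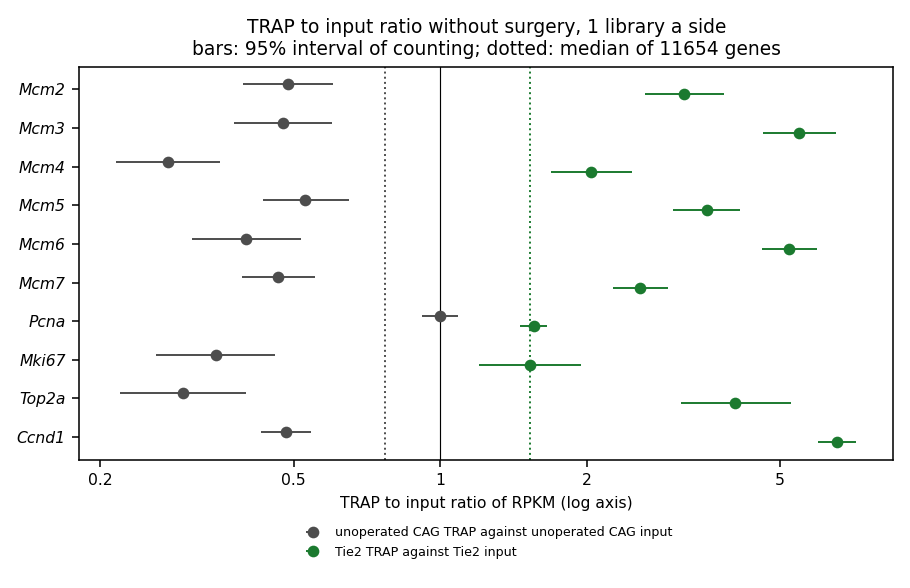
TRAP to input ratio of RPKM (log axis) in unoperated CAG (grey) and Tie2 hearts (green), 1 library a side, with 95% counting intervals and dotted lines at the medians of all genes tested, 0.772 and 1.53. The CAG ratios lie between 0.276 and 0.997 and the Tie2 ratios between 1.53 and 6.54.

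Across the libraries the MCM genes followed one another. Pearson's r of log2(RPKM + 1) between pairs of the 6 subunits had a median of 0.913 over the 12 libraries (15 pairs, 0.785 to 0.985) and of 0.845 over 11 libraries without Tie2 TRAP (0.765 to 0.969). Top2a correlated with them at a median of 0.939 and 0.894, Ccnd1 at 0.930 and 0.864, and Mki67 at 0.869 and 0.850. Pcna did so at 0.787, and at 0.432 without Tie2 TRAP. These are descriptions over 12 libraries that fall into 2 fractions and differ in depth, so they are not independent points. Correlations between other pairs of genes were not computed, so a likeness particular to the MCM genes is not shown.

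By the same measure, the genes most like the mean of the 8 tested genes over 12 libraries were Soat1, Tagln2, Tubb5, Vat1, Sfxn3, Cnn3, Gm12854 and Gsdmd (r of 0.989 to 0.991). Tubb5, a beta tubulin, was at 36.2 RPKM on average in sham input and 307.6 RPKM in Tie2 TRAP. Without Tie2 TRAP the 8 were Soat1, Dnm1, Lmnb1, Tagln2, Slc39a5, Cnn3, Vat1 and Lmnb2 (r of 0.970 to 0.980), 4 of 8 in common. Lmnb1 and Lmnb2 encode B-type lamins of the nuclear envelope, and Lmnb1 was at 1.37 RPKM on average in sham input and 2.53 RPKM in band input. All these genes were picked for following the replication genes over the same libraries, so the direction of such differences largely follows from the selection.

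The rest of the replication machinery was read from lists of related genes. With banding, limma called 2.44% of all genes higher and 1.65% lower in input, and 2.21% and 1.56% in TRAP. At those shares short lists hold few calls, so a count of 0 or 1 with banding says little about a list. Of 10 genes of origin licensing, the step that loads the MCM ring, 7 were tested and 0 changed with banding in input or TRAP. After banding, TRAP held more Gmnn, the inhibitor of licensing, at 44.8 ± 6.25 against 34.5 ± 1.89 RPKM (SD, n = 2, limma, adjusted p = 0.0494), and less Mcmbp, an MCM binding protein, at 2.22 ± 0.447 against 3.21 ± 0.121 RPKM (limma, adjusted p = 0.0304). Each was called without only 1 of the 4 libraries, with adjusted p (limma) up to 0.196 without band input 2 for Gmnn and 0.132 without band input 1 for Mcmbp. Over the list that is 1 of 7 higher and 1 lower in TRAP after banding, against 16.6% and 26.0% of all genes tested. Gmnn was also the gene of this list with the lowest Tie2 ratio, 0.240, with 10.2 RPKM in Tie2 TRAP and 42.7 RPKM in Tie2 input.

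Of 16 genes of helicase activation and the fork, 5 were tested and 0 changed in any of the 4 comparisons. Timeless, which protects stalled forks, was at 10.2 RPKM in Tie2 TRAP and 1.34 RPKM in Tie2 input, 7.64 times, above any of the 10 genes, and its partner Tipin at 7.59 and 1.86 RPKM, 4.09 times. Cdc45, a partner of the MCM ring in the active helicase, was at 2.35 and 0.845 RPKM, 2.78 times.

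Among the DNA polymerases, clamp loader and lagging strand genes, 18 of 26 were tested and 0 changed with banding in either fraction. TRAP held less Lig1, which joins Okazaki fragments, after sham surgery (0.578 ± 0.250 against 1.31 ± 0.156 RPKM, limma, adjusted p = 0.0145) and after banding (0.757 ± 0.0933 against 2.20 ± 0.00999 RPKM, limma, adjusted p = 0.00250). It held more Rpa3, a subunit of the single-strand binding protein, at 29.2 ± 1.15 against 18.8 ± 0.244 RPKM after sham surgery (limma, adjusted p = 0.00247), and more Pole4, a small polymerase epsilon subunit, at 22.2 ± 1.38 against 11.8 ± 0.804 RPKM (limma, adjusted p = 0.00363). In total 2 of the 18 were called higher and 2 lower after sham surgery, against 15.1% and 24.5% of all genes tested, and 2 and 5 after banding, against 16.6% and 26.0%, so the list's shares were near or below those of all genes. Lig1 after sham surgery kept its call without 1 of the 4 libraries only, with adjusted p (limma) up to 0.0967 without sham input 1.

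Of 8 genes of deoxynucleotide supply, 6 were tested and 0 changed with banding. Tk1, thymidine kinase, and Rrm1, the large subunit of ribonucleotide reductase, fell in TRAP against input after banding by 0.46 and 0.40 on the log2 scale (limma, adjusted p = 0.0114 and 0.0215). Tk1 lost its call without band input 2 (0.0620), and Rrm1 held it without 2 of the 4 libraries, with adjusted p up to 0.109 without band input 1. Dctpp1, which breaks down surplus dCTP, was higher in TRAP after sham surgery, at 185.1 ± 4.83 against 104.7 ± 0.476 RPKM (limma, adjusted p = 0.00470). Over the list, 0 of the 6 were called lower and 1 higher after sham surgery, against 24.5% and 15.1% of all genes. After banding 2 were lower and 1 higher, against 26.0% and 16.6%.

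Of 20 G1 cyclins, kinases and E2F genes 14 were tested. With banding 1 was called higher, against 2.44% of all genes in input and 2.21% in TRAP. Myc, a transcription factor that drives cells into the cycle, rose in both fractions. It went from 0.961 ± 0.0772 to 2.66 ± 0.121 RPKM in input (SD, n = 2, log2 fold change 0.90, limma, adjusted p = 0.00901) and from 0.496 ± 0.152 to 1.73 ± 0.120 RPKM in TRAP (0.87, limma, adjusted p = 0.00917). Leaving out any 1 input library ended the input call (limma, adjusted p of 0.0670 to 0.113), and the TRAP call held without 2 of the 4 libraries, with adjusted p (limma) up to 0.0955 without sham TRAP 2. Ccnd2, the cyclin nearest to Ccnd1, was at 8.12 ± 0.0159 and 10.8 ± 0.673 RPKM in sham and band input (limma, adjusted p = 0.0693) and fell in TRAP against input after sham surgery by 0.75 (limma, adjusted p = 0.00138). Against input, 4 of the 14 were called lower in TRAP after sham surgery and 1 (Cdk4) higher, against 24.5% and 15.1% of all genes. After banding 5 were lower and 2 (Cdk4 and Rbl2) higher, against 26.0% and 16.6%.

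Inhibitors of the cyclin-dependent kinases did not move as one. Of 7 genes 5 were tested, and Cdkn1a (p21) rose with banding from 18.9 ± 0.265 to 39.2 ± 7.46 RPKM in input (limma, adjusted p = 0.0161) and from 15.7 ± 0.0436 to 27.2 ± 3.56 RPKM in TRAP (limma, adjusted p = 0.0395). Cdkn2d rose in TRAP only by the test, from 4.60 ± 0.00583 to 9.52 ± 0.439 RPKM (limma, adjusted p = 0.0134), and the difference between fractions was not called. Cdkn1b was at 6.66 ± 0.214 and 4.44 ± 0.447 RPKM in sham and band input (limma, adjusted p = 0.101). The input call of Cdkn1a held without 1 of the 4 libraries (adjusted p up to 0.152 without sham input 2), and its TRAP call and that of Cdkn2d each without 2 of 4 (up to 0.225 and 0.127 without sham TRAP 2).

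Of 42 genes of S to M phase and mitosis only 10 reached the filter, and Cdc20, which activates the anaphase-promoting complex, rose with banding in input, from 0.886 ± 0.107 to 1.63 ± 0.0730 RPKM (log2 fold change 0.48, limma, adjusted p = 0.0426, and 0.162 to 0.288 without any 1 of the 4 libraries). In TRAP 0 of the 10 changed. Against input, TRAP held less of Incenp, of the chromosomal passenger complex, and of Dnmt1, the maintenance DNA methyltransferase, after both operations (limma, adjusted p of 0.0210 and 0.0260 after sham surgery and 0.00368 and 0.00553 after banding). Without any 1 of the 4 libraries, the calls after sham surgery were lost for both (adjusted p of 0.0539 to 0.124 for Incenp and 0.0738 to 0.148 for Dnmt1), and those after banding held. Over the list, 3 of the 10 were called lower in TRAP and 1 (Cenpa) higher after each operation. Of all genes tested, 24.5% were lower and 15.1% higher after sham surgery, and 26.0% and 16.6% after banding. Birc5 (survivin), at 0.292 ± 0.100 and 0.545 ± 0.0152 RPKM in sham and band input (limma, adjusted p = 0.224), was at 3.87 RPKM in Tie2 TRAP and 0.513 RPKM in Tie2 input, 7.55 times.

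By medians, the lists' log2 fold changes in input with banding ran from -0.17 for the inhibitors to 0.21 for the mitotic genes, beside 0.21 for the 8 genes tested and -0.01 for all genes. In Tie2 hearts the median TRAP to input ratio was 3.35 for the 10 genes, 3.39 for the inhibitors, 2.98 for the mitotic list, 2.43 for the G1 list and 1.45 for deoxynucleotide supply, beside 1.53 for all genes tested.

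Some of the 10 genes overlap others in the RefSeq annotation, and the libraries do not mark strand. Mcm7 overlaps Ap4m1 and the microRNA genes Mir25, Mir93 and Mir106b, Ccnd1 overlaps LTO1, and Top2a overlaps a small nucleolar RNA gene. Ap4m1 is listed at 0.333 to 4.08 RPKM over the libraries, and LTO1, under its older symbol Oraov1, at 5.84 to 12.3 RPKM. Ccnd1 itself ran from 1.71 RPKM to 20.1 RPKM, the latter in Tie2 TRAP. Reads of the overlapping stretches cannot be assigned to one gene, and how they were counted is not stated there either.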

How the data were processed

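RNA-seq of input and TRAP RNA was analysed from the authors' table of 34306 genes in 12 libraries. The authors deposited RPKM values, and per the submitters' processing notes CASAVA 1.8.2, TopHat 1.4, HTSeq 0.5.3 and the build NCBIM37 were used. Per the labels, RNA was selected by poly(A) and copied from random primers, without marking strand. Of 205107 values under 2000 reads, 205107 were whole numbers of reads within 0.02, so reads were recovered (26568988 to 94878619 a library). Columns were matched by name to groups of the later deposit, 24 of the 53 samples listed, and the other samples are not analysed here. Each column, called a library here, matches a pair of sample titles there, whose endings the column names do not tell apart. The names of the sham, band and Tie2 TRAP columns would also fit titles of the first deposit, so the match is not certain.

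Values were tested as log2(RPKM + 1) with limma 3.58.1 in R 4.3.3 (trend, group means over the 12 libraries) for the 11654 genes that reached 1 RPKM in 2 or more libraries, with Benjamini-Hochberg adjustment over all of them and a threshold of 0.05. With a single library a side, ratios have 95% exact binomial intervals of reads (SciPy 1.17.1). Limma-voom on recovered reads (16326 genes, filter of 10 reads) and the crossed pairing were added after seeing the data. Other alternatives were a pseudocount of 0.1, no filter, quantile normalization, totals without mitochondrial and haemoglobin genes, removal of each library's trend over length, only the libraries compared, a replicate block and leaving out each library. The fit of band against sham input was also run on simulated counts. Their spread between replicates was set in advance, not taken from these libraries, and no result here rests on that run. From each pathway list the text names among the 4 genes with the smallest adjusted p in band against sham input, or, where none was called there, in TRAP against input after banding. The genes and lists were chosen with earlier results of these data known.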

Additional observations from a re-analysis of the deposited data

Results flagged for a closer look

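For 9 of the 10 genes, all but Pcna, the TRAP to input ratio of RPKM was above 1 in the Tie2 heart and below 1 in each of the 9 pairs of a TRAP and an input library from CAG hearts of one treatment. The Tie2 ratio was 3.17 for Mcm2 (CAG pairs 0.290 to 0.527), 5.47 for Mcm3 (0.226 to 0.474) and 2.05 for Mcm4 (0.224 to 0.619). It was 3.53 for Mcm5 (0.222 to 0.547), 5.22 for Mcm6 (0.380 to 0.668) and 2.58 for Mcm7 (0.465 to 0.739). For Mki67 it was 1.53 (0.0475 to 0.346), for Top2a 4.04 (0.120 to 0.379) and for Ccnd1 6.54 (0.459 to 0.720). Over all genes tested the median ratio was 1.53 in the Tie2 heart and 0.772 in the unoperated CAG heart. The typical gene thus lay on the same sides of 1, and the share of all genes that meet this rule is not given here. The Tie2 ratio rests on 1 library a side and the difference between tag lines was not tested. The CAG pairs share libraries and are not independent.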

How the results depend on the processing

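Of the log2 fold changes of the 8 genes under the alternatives, 522 kept direction and side of the threshold, 43 lost and 9 gained the call, and 18 changed sign. The causes of the changes below were not tested. For TRAP against input after sham surgery, the genes called over the table numbered 902 higher and 4611 lower with rescaled totals, 1851 lower with quantile normalization and 1704 lower with the length trend removed, and of the 8 genes 1 and 2 were lower under the last 2 settings. Mcm6 was then at 0.063 and 0.0086, and Pcna at -0.19 with rescaled totals and -0.092 with the length trend removed. After banding the numbers were 1082 higher and 4785 lower (rescaled), 1955 lower (quantile, with 4 of the 8 genes) and 936 higher and 1542 lower (only the libraries compared).

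For band against sham input, 758 were higher and 660 lower with only the libraries compared, and of the 8 genes 0 were called with a pseudocount of 0.1. For band against sham TRAP, 127 were higher and 80 lower with no filter and 0 and 0 with only the libraries compared (limma, 1461 at an unadjusted p under 0.05), and Mcm3, 1 of the 8 genes, was called with a pseudocount of 0.1 and with limma-voom under both filters (RPKM or reads). There Mcm4 was at -0.0086 with that pseudocount and -0.075 and -0.077 with limma-voom under the RPKM and the read filter, and Mcm6 at 0.0010 with quantile normalization. The interaction was called higher for 1 and lower for 1 gene with a pseudocount of 0.1 and higher for 2 with no filter, and Mcm3 was at 0.18 with that pseudocount and 0.41 with limma-voom under both filters.

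The library numbers of the groups share only a number, since deviations of same-numbered libraries correlated at -0.17, 0.03, -0.05 and -0.43 over genes. With a replicate block, 21 genes were higher and 4 lower for band against sham input, with 0 of the 8 (Mcm5 at an adjusted p of 0.114 and Mcm3 at 0.136, limma), and 26 higher and 7 lower in TRAP. With crossed numbers, band against sham input had 265 higher and 138 lower, with 1 of the 8 genes.

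Leaving out 1 library gave 670 to 852 higher and 1247 to 1501 lower for TRAP against input after sham surgery, with 1 to 3 of the 8 genes lower and Pcna at -0.025 to 0.081, and 1154 to 2490 higher and 1625 to 4020 lower after banding. It gave 22 to 50 higher and 4 to 18 lower for band against sham input, with 0 of the 8 genes, and 27 to 1089 higher and 6 to 1088 lower in TRAP, with Mcm4 at -0.19 to 0.23 and Mcm7 at -0.064 to 0.21. For the interaction it gave 0 to 18 higher and 0 to 186 lower, with Mcm4 at -0.41 to 0.0062 and Mcm7 at -0.27 to 0.0047.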
